A study of Mus musculus with 6 samples.

Results

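The genes described are 34 mouse genes of the unfolded protein response and of the ATF4 response, measured on 6 expression arrays. They were chosen by name from what is known of the pathway, but with earlier results of these data known. They are 3 stress sensors, 4 transcription factors, 13 chaperones and folding factors of the endoplasmic reticulum (ER), 3 genes of ER-associated degradation and 11 targets of ATF4. All 34 had a probe set of their own among 18193 genes that did, and each was read from its probe set with the highest mean log2 value. Of these, 33 lay above the limit for dim probe sets and were tested, among 10200 tested genes in all. Chac1, which encodes an enzyme that degrades glutathione, was the exception.

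The cells were 32D, a mouse myeloid line that depends on interleukin-3 (IL-3). In 3 samples they carried the expression construct C2-MiR-9, for miR-9 and miR-9*, and in 3 samples the empty vector A1-EV. Both arms grew with 10% FCS, Pen/Strep and 10 ng/ml murine IL-3, so no sample was deprived of IL-3, and no agent that stresses the ER is given in the labels. The promoter of the construct, and whether either arm was 1 clone or a pool of cells, is not given in the sources used here. Each arm has replicate numbers 1 to 3, and the labels do not say how the cultures were separated, so p-values measure the spread between these samples, which may be technical. The comparison asks which genes differ once the cells carry miR-9 and miR-9*. The first set of sequences shows those 2 strands of 1 precursor, from RefSeq on build GRCm38.p6, with the seed (bases 2 to 8) in capitals. They are identical at Mir9-1 (chr3:88215613-88215635 for miR-9, plus strand), Mir9-2 and Mir9-3.
mmu-miR-9-5p (miR-9): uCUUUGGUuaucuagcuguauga
mmu-miR-9-3p (miR-9*): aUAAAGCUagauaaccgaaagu

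The unfolded protein response links the load of unfolded protein in the ER to transcription and translation. Its sensors are the kinases IRE1 (Ern1) and PERK (Eif2ak3) and the membrane-bound factor ATF6. IRE1 splices the mRNA of Xbp1, and spliced XBP1 and cleaved ATF6 raise chaperone and degradation genes. PERK phosphorylates the translation factor eIF2, which lowers general translation and raises that of ATF4. Kinases that sense amino acid shortage, haem shortage or double-stranded RNA act on the same factor, so ATF4 targets can move apart from ER chaperones. Splicing, cleavage, phosphorylation and protein were not measured on these arrays.

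Promoters of 31 of the 34 genes were in the RefSeq promoter table, which held 27025 genes on build GRCm38.p6 after a chromosome not used here was left out. A gene with several windows was counted once, so the shares of promoters are shares of genes. Each window was 300 bases long, 250 before the gene's start and 50 after it, and was searched on both strands. The ER stress response element (ERSE: CCAAT, 9 free bases, CCACG) was in the promoters of 37 genes, 0.137% of all. Of these, 7 are among the genes described: Hspa5, Hsp90b1, Calr, Canx, Pdia6, Dnajc3 and Creld2. The related ERSE-II (ATTGG, 1 free base, CCACG) was in 0.0444% of all promoters and in that of Herpud1 alone among the 31. The ATF4-C/EBP element (TGATGNAA) was in 4.51% of all promoters and in 5 of the 31, those of Herpud1, Asns, Chac1, Trib3 and Aars. The XBP1 element (UPRE: TGACGTGG) was in 0.714% of all promoters and in 0 of the 31. A match is a description of letters and does not show a bound site.

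The 250 bases before the start are shown for Hspa5 and Hsp90b1, as the chaperone promoters whose genes are described most fully, for Herpud1, which holds both kinds of element, and for Ddit3, which holds no match but had the widest spread between arrays. They are written in the direction of the gene, and capitals mark the matches. Hspa5 lies at chr2:34771840-34772089 on the plus strand, Hsp90b1 at chr10:86705445-86705694 on the minus strand, Herpud1 at chr8:94386179-94386428 on the plus strand and Ddit3 at chr10:127290543-127290792 on the plus strand.
Hspa5 promoter: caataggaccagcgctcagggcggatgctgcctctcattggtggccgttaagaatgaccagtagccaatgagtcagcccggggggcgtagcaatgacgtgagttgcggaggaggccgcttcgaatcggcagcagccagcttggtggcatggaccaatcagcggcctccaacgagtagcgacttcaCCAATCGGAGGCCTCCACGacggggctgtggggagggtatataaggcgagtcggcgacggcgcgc
Hsp90b1 promoter: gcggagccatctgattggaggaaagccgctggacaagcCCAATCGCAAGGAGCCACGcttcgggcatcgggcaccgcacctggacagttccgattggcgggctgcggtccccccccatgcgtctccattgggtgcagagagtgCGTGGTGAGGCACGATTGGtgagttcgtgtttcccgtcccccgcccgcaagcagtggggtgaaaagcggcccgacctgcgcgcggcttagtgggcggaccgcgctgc
Herpud1 promoter: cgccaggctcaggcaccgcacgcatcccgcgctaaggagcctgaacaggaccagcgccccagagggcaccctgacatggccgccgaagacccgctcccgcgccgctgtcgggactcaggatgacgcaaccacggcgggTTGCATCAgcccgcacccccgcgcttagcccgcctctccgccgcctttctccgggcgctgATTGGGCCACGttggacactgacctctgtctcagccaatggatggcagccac
Ddit3 promoter: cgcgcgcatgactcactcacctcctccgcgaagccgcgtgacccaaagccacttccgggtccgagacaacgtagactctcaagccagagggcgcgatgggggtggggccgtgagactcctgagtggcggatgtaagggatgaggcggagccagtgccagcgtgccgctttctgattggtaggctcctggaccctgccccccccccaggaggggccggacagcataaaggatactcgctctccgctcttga
Hspa5 has 1 ERSE match, at bases 186 to 204 of its window. Hsp90b1 has 2, at bases 39 to 57 on the gene's strand and at bases 144 to 162 on the other. In Herpud1 the ATF4-C/EBP element reads TGATGcAA on the strand opposite to the gene, and the ERSE-II match follows it. The matches in these windows do not overlap. In Trib3 the element reads TGATGtAA, in Asns TGATGaAA and in Chac1 TGATGcAA.

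Each value is a MAS5 signal, an intensity on a linear scale scaled by the same trimmed mean on every array. The median of all probe sets lay between 12.0 and 15.2. Pairs of arrays correlated at 0.919 to 0.942 (Spearman), and 0 pairs were identical. Of 13 listed myeloid progenitor markers, Ptprc (CD45) was at 1367 to 1642, Myb at 1936 to 2885 and Csf2rb, the shared chain of the IL-3 receptor, at 974 to 2736. Mpo ran from 60.0 to 1629 and Ctsg from 27.7 to 263, and both differed between replicate numbers (limma adjusted p = 0.00694 and 0.00636). Elane, Cd34 and Kit were below the limit for dim probe sets. With 3 arrays per arm, that number limits how precise any value is.

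None of the 33 genes passed the test between miR-9/9* and empty vector, and 10 of them differed between replicate numbers. The arm comparison called 0 of 33 at a limma adjusted p of 0.05, against 0.0588% of all tested genes. At an unadjusted p under 0.05 it held 1 of 33, against 4.61% of all. With the replicate number as a block it again called 0 of 33, against 2.96% of all, and at an unadjusted p under 0.05 it held 2 of 33, against 17.0%. The test of the replicate number itself called 10 of 33, against 24.3% of all tested genes, so with these settings the share was near the background. The shares lay further apart elsewhere: 15 of 33 against 21.0% of all after quantile normalization, 7 of 34 against 5.81% with no filter on dim probe sets, 5 of 33 against 8.53% without a variance trend and 7 of 33 against 7.75% without number 3. In bulk samples, fewer cells of a type and less RNA per cell cannot be told apart.

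The genes took opposite places across the numbers. Both arrays of number 2 lay above the other 4 for 7 genes: Atf6, Ddit3, Pdia6, Dnajb9, Herpud1, Trib3 and Ddit4. Of all tested genes, 14.0% had that pattern. Both arrays of number 3 lay above the rest for 6 genes, Atf4, Hspa5, Pdia3, Sdf2l1, Aars and Ppp1r15a, against 16.4% of all. Both arrays of number 1 lay below the rest for 9 genes, against 6.33% of all, and both of number 3 lay below for 6, against 21.2%. The plot of deviations by array shows these blocks of columns.

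**Figure D1:**
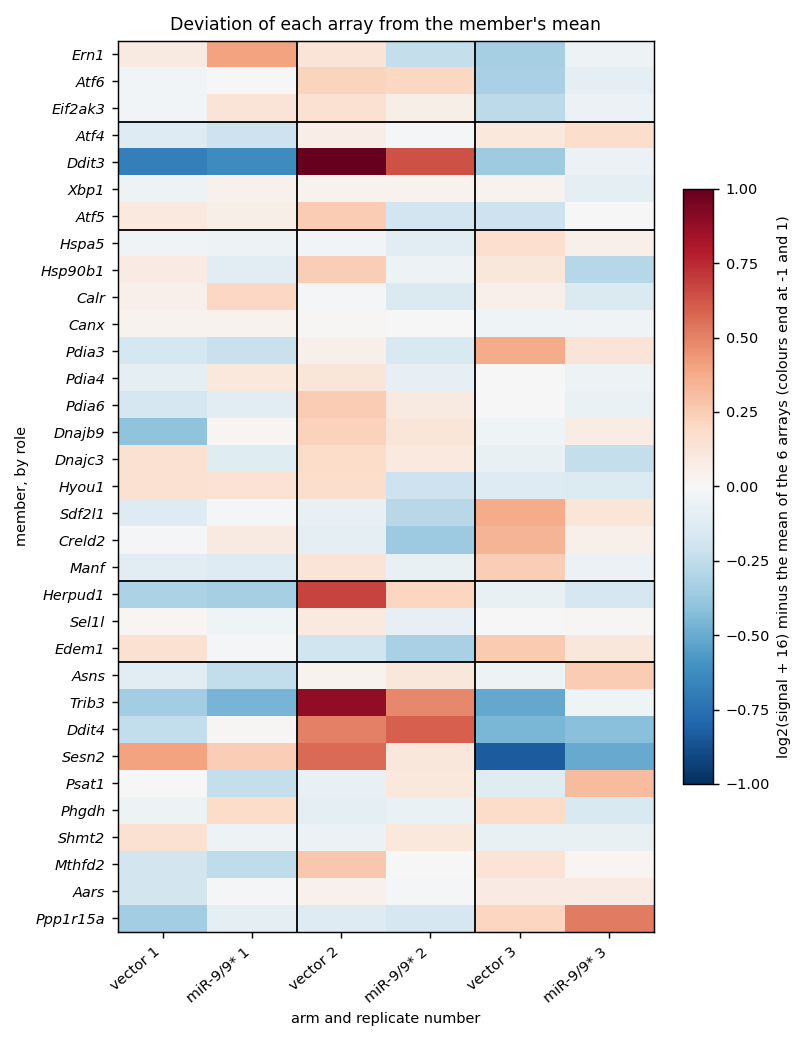
Deviation of log2(signal + 16) from the gene's mean over 6 arrays, for the 33 tested genes (rows, by role) in each array (columns, by replicate number and arm). Ddit3, Herpud1, Trib3 and Ddit4 are high in both arrays of number 2, while Ppp1r15a, Pdia3 and Sdf2l1 are high in both of number 3.

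Among the sensors, Ern1 had signals of 194, 199 and 140.1 with empty vector (replicate numbers 1, 2 and 3) and of 243, 151 and 174 with miR-9/9*. The arms overlapped, and the log2 fold change was 0.07 with a 95% interval of -0.22 to 0.37 with the number as a block. Eif2ak3 was at 162, 186 and 135 with empty vector and at 183, 172 and 158 with miR-9/9*, a log2 fold change of 0.09. Number 3 was the lowest of its arm for Eif2ak3 in both arms. Atf6 ran from 88.7 to 137. No sensor passed either test, and the smallest adjusted p for the number was 0.0637, for Atf6 (limma).

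Of the transcription factors, Atf4, Xbp1 and Atf5 passed neither test in the main fits, and Ddit3 differed between numbers. Under alternatives the number passed for Xbp1 after quantile normalization (limma adjusted p = 0.0120) and for Atf4 with arrays centred on their medians (0.0448). Atf4, which drives amino acid synthesis and redox genes, was at 1662, 1912 and 1955 with empty vector and at 1577, 1801 and 2064 with miR-9/9*. Number 1 was lowest and number 3 highest in both arms, but the number did not pass (limma adjusted p = 0.0731). After quantile normalization number 2 had the highest mean. A second Atf4 probe set was also highest in number 2 in both arms, at 1162, 1327 and 1128 with empty vector and at 918, 1351 and 1076 with miR-9/9*. The arm difference was -0.03 on the log2 scale, with a blocked 95% interval of -0.19 to 0.14. Xbp1 was at 3938, 4179 and 4162 with empty vector and at 4195, 4166 and 3791 with miR-9/9*. Its log2 fold change was -0.02 (blocked interval -0.22 to 0.19). Atf5, a further factor translated under eIF2 phosphorylation, ran from 103 to 148.

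Ddit3 (CHOP), a factor induced downstream of ATF4, spread most over the numbers among the 33 genes. It was at 81.6, 317 and 107 with empty vector and at 85.2, 227 and 135 with miR-9/9*. Both number 2 arrays stood above the other 4, and the arms overlapped. The number 2 mean was 1.52 above number 1 on the log2(signal + 16) scale (SE 0.163), and the number passed at an adjusted p of 0.00158 (limma F test, Benjamini-Hochberg). The arms differed by -0.03 on that scale, with a blocked interval of -0.33 to 0.27. A second, dimmer probe set of Ddit3 was at 36.2, 74.0 and 48.3 with empty vector and at 36.7, 81.1 and 52.9 with miR-9/9*, with the same order of numbers.

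Trib3 and Herpud1 were also highest in number 2. Trib3, a pseudokinase that inhibits AKT and is induced by ATF4 and CHOP, was at 109, 279 and 95.6 with empty vector and at 99.2, 206 and 139 with miR-9/9*. Number 2 was 1.09 above number 1 (log2, SE 0.180, limma adjusted p = 0.00639). A second Trib3 probe set gave 101, 281 and 74.4, and 101, 213 and 124. Herpud1, a ubiquitin-like ER membrane protein of the degradation machinery, was at 308, 629 and 367 with empty vector and at 304, 450.4 and 342 with miR-9/9*. Number 2 was 0.77 above number 1 (log2, SE 0.113, limma adjusted p = 0.00507), and a second probe set had the same order, with 253, 418 and 316, and 217, 353 and 301. Without the 2 arrays of number 2 neither gene passed between the remaining numbers, with adjusted p of 0.575 for Trib3 and 0.124 for Herpud1 (limma).

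Ddit4 (REDD1), an inhibitor of mTORC1, was at 259, 447 and 222 with empty vector and at 313, 479 and 228 with miR-9/9*. Number 2 was highest and number 3 lowest in both arms, and number 3 lay 0.99 below number 2 (log2 difference -0.99, SE 0.0905, limma adjusted p = 0.000817). It was higher with miR-9/9* in 3 of 3 numbers, the one gene of the 33 with that pattern, against 21.0% of all tested genes. That difference was 0.13 on the log2 scale with a blocked interval of -0.04 to 0.30. Ddit3 and Ddit4 were the 2 genes whose number call held under all 12 alternatives run.

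Sesn2 (sestrin 2), a stress-induced inhibitor of mTORC1, had another order. It was at 125, 142 and 44.0 with empty vector and at 111, 99.7 and 59.3 with miR-9/9*, so that both number 3 arrays lay below the other 4. The difference of number 3 from number 1 was -0.99 (log2, SE 0.176, limma adjusted p = 0.00657). Without number 3 the adjusted p was 0.953. Its second probe set was highest in number 2 in both arms, at 137 and 113. Ppp1r15a (GADD34), the regulatory subunit that directs dephosphorylation of eIF2, was instead highest in number 3. It was at 347, 407 and 519.6 with empty vector and at 419.8, 397 and 646 with miR-9/9*, and number 3 was 0.58 above number 1 (log2, SE 0.0998, limma adjusted p = 0.00746). That call was lost without number 3 (adjusted p = 0.711) and without a variance trend (0.0547). Its arm difference of 0.18 on the log2 scale had a blocked interval of -0.01 to 0.36.

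**Figure D2:**
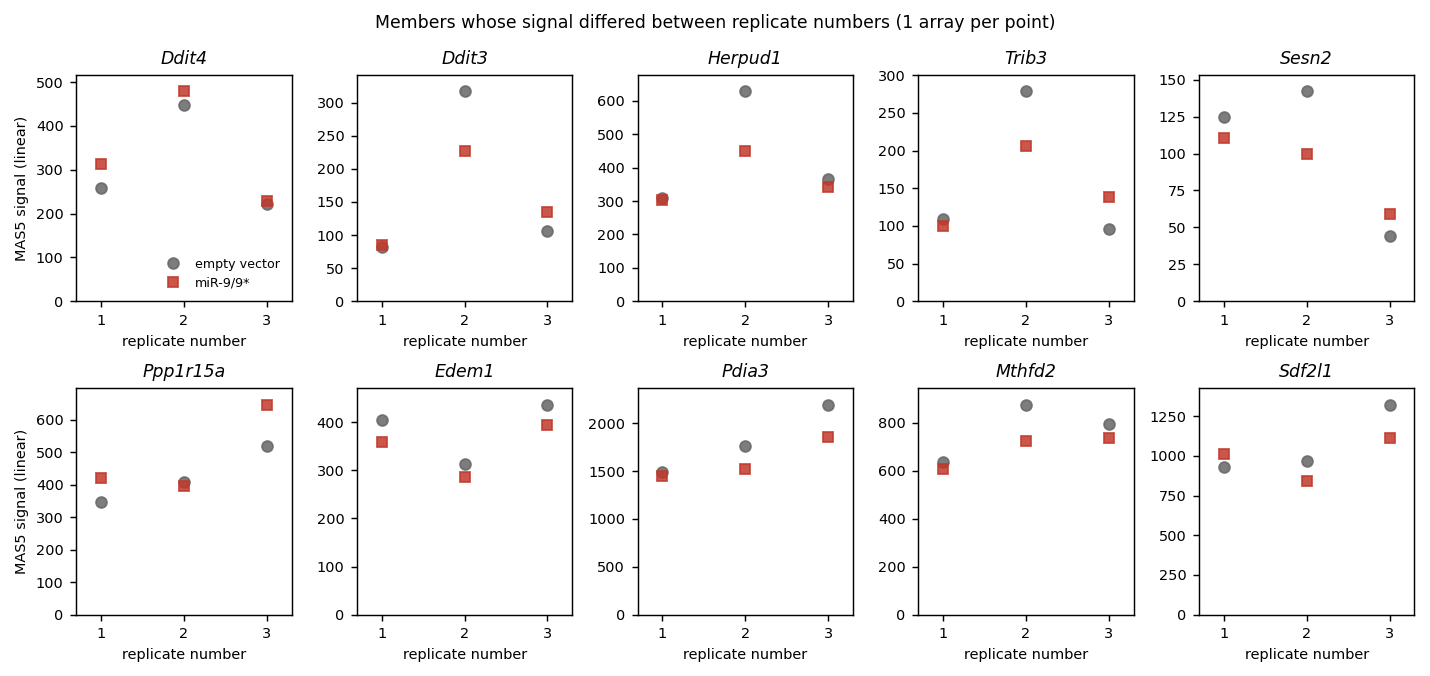
MAS5 signal (linear axis from 0) of the 10 genes that differed between replicate numbers, 1 point per array, with empty vector as circles and miR-9/9* as squares. Ddit3, Trib3, Herpud1 and Ddit4 peak in number 2 in both arms, and Sesn2 is lowest in number 3.

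Of the amino acid and one-carbon enzymes under ATF4, Mthfd2 alone differed between numbers. Asns (asparagine synthetase) was at 819.9, 909.8 and 855 with empty vector and at 748, 964 and 1064 with miR-9/9*. Phgdh, which starts serine synthesis, was at 2914, 2831 and 3444 and at 3432, 2892 and 2713. Neither passed a test with these probe sets, with blocked intervals of the log2 fold change of -0.11 to 0.28 for Asns and -0.28 to 0.23 for Phgdh. Other probe sets of Phgdh lay higher with miR-9/9*. One was at 1111, 1185 and 1122 with empty vector and at 1295, 1436 and 1322 with miR-9/9*, with a mean log2 difference of 0.24. Its arms did not overlap, as for 9.8% of all tested genes. Another was at 2899, 2704 and 3072 and at 3135, 3112 and 3235, a difference of 0.13, and the other 3, of which 2 are annotated to several genes, had differences of 0.02 to 0.25. Mthfd2, a mitochondrial folate enzyme, was at 635, 875 and 794 with empty vector and at 605, 725 and 734 with miR-9/9*, with number 1 lowest in both arms. It differed between numbers (limma adjusted p = 0.0283), and this call was lost without number 1 (0.711), with no filter on dim probe sets (0.0710) and without a variance trend (0.106). Its highest number was 2, and 3 once arrays were centred on their medians. Psat1 (serine synthesis), Shmt2 (serine to glycine) and Aars (alanyl-tRNA synthetase) ran from 529.8 to 786, from 656 to 770.0 and from 748 to 906. Chac1 was at 16.2, 5.49 and 6.69 with empty vector and at 14.3, 8.91 and 9.55 with miR-9/9*. The probe sets used for Trib3, Phgdh and Shmt2 are of a design that can bind other transcripts. Those used for Xbp1, Canx, Hyou1 and Aars are of another design, with probes that several transcripts can share.

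As a group, 5 of the 10 tested ATF4 targets differed between numbers, against 24.3% of all tested genes. These were Trib3, Ddit4, Sesn2, Mthfd2 and Ppp1r15a, and they did not share an order. The count was 3 of 10 without a variance trend (8.53% of all genes) and without number 3 (7.75%). It was 4 of 10 with no filter on dim probe sets (5.81%), without number 1 (23.9%) and without number 2 (17.1%). Between the arms 5 had higher and 5 lower estimates, with a median log2 fold change of 0.01 that equalled that of all tested genes to 2 decimals. Their median difference was -0.09 within number 1, 0.00 within number 2 and 0.17 within number 3.

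Of the 13 ER chaperones, 2 differed between numbers, against 24.3% of all tested genes, and most had lower estimates with miR-9/9*. In all, 12 had a negative arm estimate and 6 were lower in 3 of 3 numbers: Hspa5, Hsp90b1, Pdia3, Dnajc3, Hyou1 and Manf. Of all 10200 tested genes 4849 had a negative estimate and 18.0% were lower in 3 of 3. The median difference of the 13 was -0.005 within number 1, -0.20 within number 2 and -0.17 within number 3. Within number 1 Hspa5, Hyou1 and Manf differed by only -0.015, -0.007 and -0.014. The median log2 fold change of the 13 was -0.11, against 0.01 over all tested genes, and no chaperone passed in either fit. The count that differed between numbers depended on the setting. After quantile normalization it was 6 of 13, against 21.0% of all genes, with Hsp90b1 (limma adjusted p = 0.00777), Calr (0.0189), Pdia6 (0.0256), Dnajc3 (0.0403) and Canx (0.0411) gained and Sdf2l1 lost. It was 0 of 13 with no filter on dim probe sets and without a variance trend (limma). For the arms, once arrays were centred on their medians, 12 had a negative estimate and 3 were lower in 3 of 3 (20.7% of all genes). After quantile normalization the counts were 11 and 5 (19.2% of all genes).

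Hsp90b1 (GRP94), an ER chaperone of secreted and membrane proteins, had the largest arm difference of the 33 genes. It was at 2868, 3202 and 2924 with empty vector and at 2507, 2602 and 2217 with miR-9/9*. The arms did not overlap, which held for 9.8% of all tested genes and for no other of the 33. The means were 2998 ± 179 and 2442 ± 200.3 (SD, n = 3 each), a log2 fold change of -0.30 (SE 0.112, limma adjusted p = 0.999). In the blocked fit the SE was 0.0804, the 95% interval -0.48 to -0.11 and the limma adjusted p 0.0942. Quantile normalization with the block was the one alternative in which it passed (adjusted p = 0.0225). A second probe set of Hsp90b1 was at 1716, 2221 and 2384 with empty vector and at 1726, 1731 and 1740.3 with miR-9/9*, nearly equal in number 1 and lower with miR-9/9* in numbers 2 and 3.

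Hspa5 (BiP), the ER chaperone that also holds the sensors inactive, was at 3382, 3406 and 3900.1 with empty vector and at 3346, 3215 and 3589.6 with miR-9/9*. Number 3 was highest in both arms, but after quantile normalization number 2 had the highest mean and number 3 the lowest. The arm difference was -0.07 on the log2 scale, with a blocked interval of -0.26 to 0.11. Calr (calreticulin), a lectin chaperone, was at 3569.8, 3387 and 3574 with empty vector and at 3980.3, 3106 and 3106 with miR-9/9*, higher with miR-9/9* in number 1 and lower in numbers 2 and 3. Its membrane-bound relative Canx stayed between 2046 and 2162. Dnajc3, a co-chaperone of BiP, was at 626, 641 and 535 with empty vector and at 517, 603 and 474 with miR-9/9*. It was lower in each number, by -0.17 on the log2 scale (blocked SE 0.0675), and did not pass (limma adjusted p = 0.230 in the blocked fit). Dnajb9, another co-chaperone and a known XBP1 target, was the 1 chaperone with a positive estimate, 0.15.

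The 2 chaperone-class genes that differed between numbers were both highest in number 3. Pdia3, a disulfide isomerase for glycoproteins, was at 1496, 1759 and 2196 with empty vector and at 1447, 1524 and 1854 with miR-9/9*, with number 3 above number 1 by 0.45 (log2, SE 0.0907, limma adjusted p = 0.0183). Sdf2l1, part of an ER chaperone complex, was at 932, 969 and 1323 and at 1010.0, 841 and 1109.6 (limma adjusted p = 0.0348). Both calls were lost under several alternatives. For Pdia3 the adjusted p was 0.0759 without number 1 and 0.228 without number 3, and for Sdf2l1 it was 0.0583 without number 2 and 0.530 without number 3. For both it was above 0.05 with no filter on dim probe sets (0.0608 and 0.102) and without a variance trend (0.0733 and 0.116), and for Sdf2l1 also after quantile normalization (0.112). The other isomerases Pdia4 and Pdia6 ran from 266 to 310.2 and from 987 to 1327, and Hyou1, Creld2 and Manf from 288 to 381, 212 to 355 and 1535 to 1993.

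**Figure D3:**
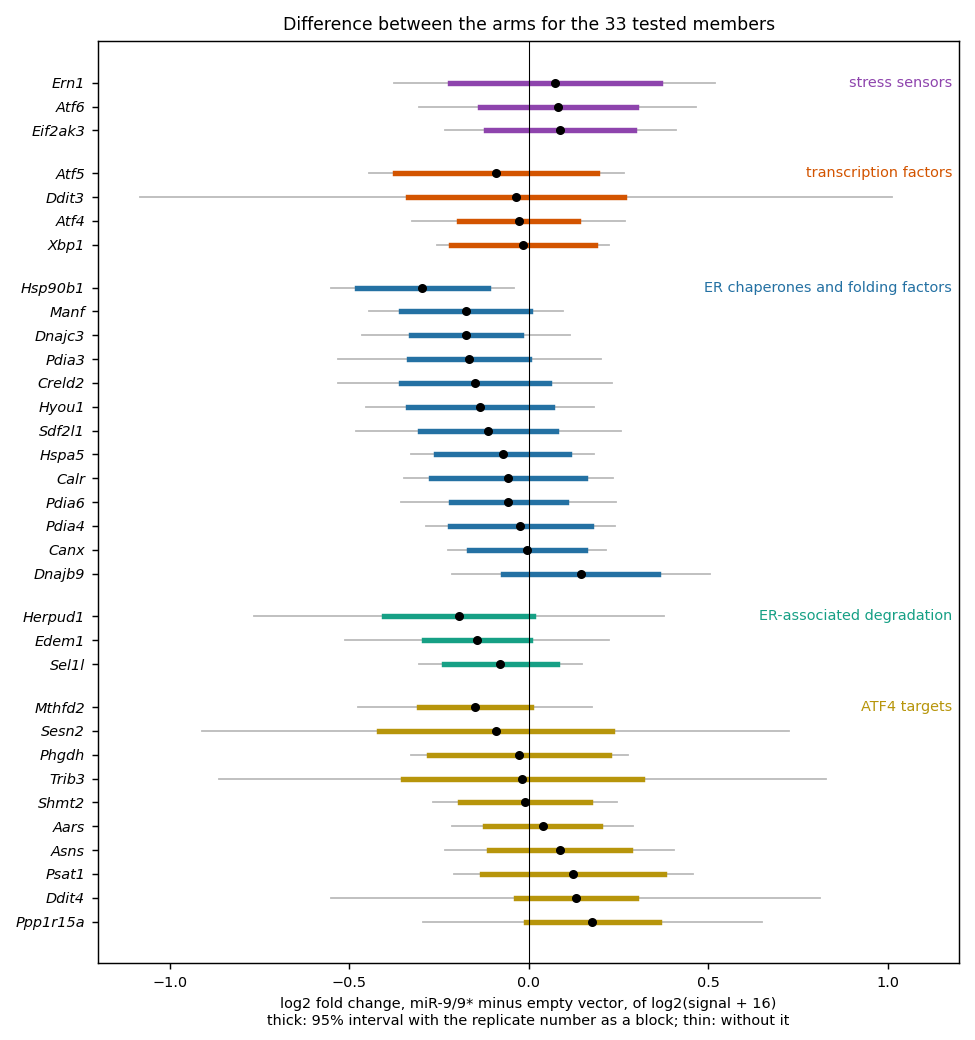
Log2 fold change of each tested gene, miR-9/9* minus empty vector (points), with 95% intervals with (thick) and without (thin) the replicate number as a block. Of the 13 ER chaperones 12 lie left of 0, and the blocked interval excludes 0 for Hsp90b1 and Dnajc3, neither of which passed after adjustment.

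The genes of ER-associated degradation include Herpud1, given above, Sel1l and Edem1. Sel1l, the adaptor of the main ER ubiquitin ligase, was at 407, 430.0 and 401 with empty vector and at 389, 378 and 403 with miR-9/9*, with a log2 fold change of -0.08 (blocked interval -0.24 to 0.08). Edem1, which recognises misfolded glycoproteins, was at 405, 314 and 437 with empty vector and at 360.1, 287 and 394 with miR-9/9*. Number 2 was lowest in both arms, the reverse of Herpud1, with number 3 above number 2 by 0.45 (log2, SE 0.0804, limma adjusted p = 0.0107). A second Edem1 probe set was nearly flat, at 231, 232 and 231, and 248, 209 and 227. The Edem1 call was lost when probe sets were averaged (0.0757), without a variance trend (0.0606) and without number 2 (0.350). Herpud1 and Edem1 were lower with miR-9/9* in 3 of 3 numbers, by -0.19 and -0.14 on the log2 scale, and neither passed in either fit. For Herpud1 the differences within numbers 1, 2 and 3 were -0.02, -0.47 and -0.10. Its log2 fold change was -0.06 without number 2 in the blocked fit and 0.10 without the number 2 empty vector array in the unblocked fit.

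Without number 1, 2 or 3, the test of the number called 11, 8 and 7 of the 33 genes, while it called 2434, 1749 and 790 of all tested genes. Among the 10 called genes, the number with the highest mean stayed the same when arrays were centred on their medians or quantile-normalized, except for Mthfd2, given above, and Sesn2, which was highest in number 1 after centring. Among the other 23 tested genes the highest number changed under 1 or both of these scalings for Aars, Asns, Atf4, Canx, Hspa5, Manf, Pdia4, Phgdh, Sel1l and Xbp1.

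The genes with an ERSE in the promoter were described by their arm estimates as well. The 7 among the 33 are all ER chaperones, of which 12 of 13 had negative estimates. All 7 had a negative estimate, against 4849 of all 10200 tested genes, with a median of -0.07 on the log2 scale. Of the 7, 3 were lower in 3 of 3 numbers, against 18.0% of all. In the blocked fit 0 were called, against 2.96% of all, and between numbers 0, against 24.3%. The 7 other tested genes with an ERSE had a median of 0.02, and 3 of them were negative. Of the tested genes with an ATF4-C/EBP element, 4 belong to the 33 and 2 of these, Trib3 and Herpud1, differed between numbers. So did 53 of the 216 others and 24.3% of all tested genes.

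Further genes of the pathway came from 5 lists of 95 genes in all, 78 of them tested. These lists were also chosen with earlier results of these data known. In the unblocked fit 0 were called (limma), against 0.0588% of all tested genes, and 6 had an unadjusted p under 0.05, against 4.61%. In the blocked fit 1 rose and 2 fell, near the 2.96% of all tested genes called in either direction. At an unadjusted p under 0.05 the blocked fit held 21, against 17.0% of all. Between numbers 17 differed, against 24.3%. Of 23 tested genes for ER folding and translocation, 20 had a negative arm estimate and 16 were lower with miR-9/9* in 3 of 3 numbers, with a median log2 fold change of -0.15. Of all 10200 tested genes 4849 had a negative estimate and 18.0% were lower in 3 of 3. For the 23 genes the counts were 20 and 16 with centred arrays, where 20.7% of all were lower in 3 of 3. After quantile normalization they were 20 and 15, with 19.2% of all.

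One of these genes fell in the blocked fit. Ssr1, a subunit of the translocon-associated protein complex, was at 1376, 1652 and 1267 with empty vector and at 922, 1267 and 1062 with miR-9/9*, lower in each number. The log2 fold change was -0.40 (blocked SE 0.0785, limma adjusted p = 0.0302 with the block and 0.993 without it). Its relatives Ssr2, Ssr3 and Ssr4 were lower in 3 of 3 numbers as well, without passing.

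**Figure D4:**
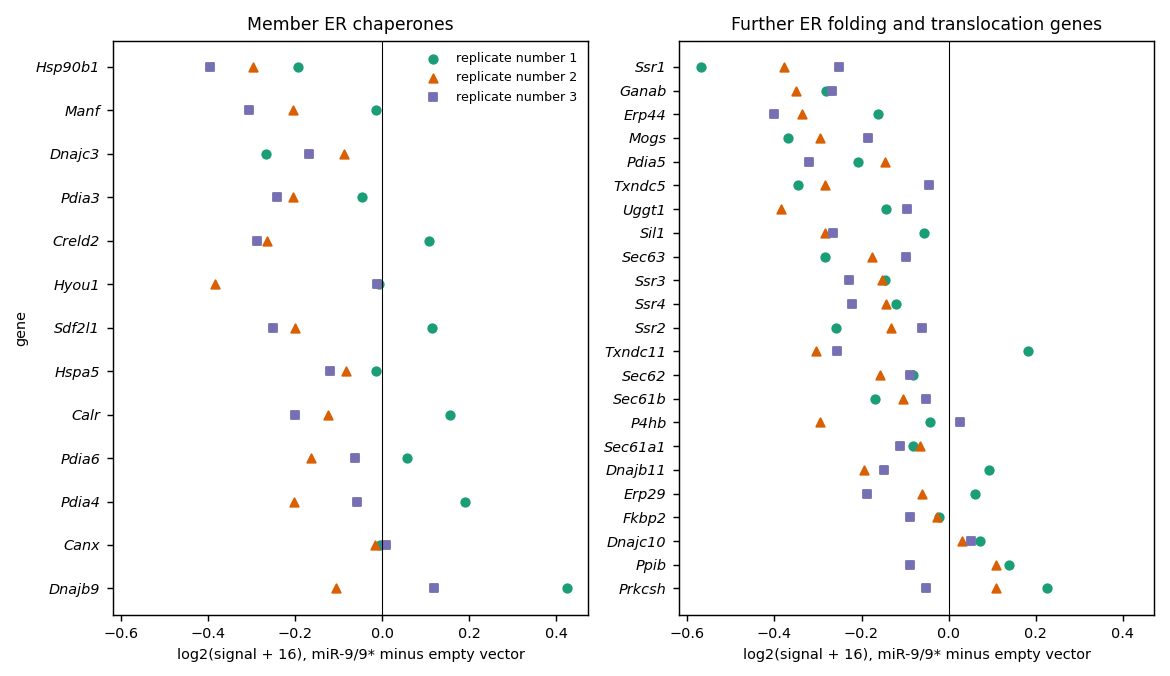
Difference in log2(signal + 16), miR-9/9* minus empty vector, within each replicate number for the 13 ER chaperones (left) and 23 further ER folding and translocation genes (right). Most points lie left of 0, and Ssr1 is the lowest of the further genes by its mean.

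Of 14 tested genes of degradation and sensor processing, Mbtps2 and Nfe2l2 passed in the blocked fit, against 2.96% of all tested genes. Mbtps2, the protease that releases ATF6 from its membrane, was at 247, 266 and 213 with empty vector and at 312, 334 and 267 with miR-9/9*, a log2 fold change of 0.31 (limma adjusted p = 0.0490 with the block, 0.999 without). Nfe2l2 (NRF2), a redox factor that PERK can phosphorylate, was at 396, 413 and 479 and at 269, 323 and 349.7, a log2 fold change of -0.44 (limma adjusted p = 0.0135 with the block, 0.753 without). The arms did not overlap for either gene, which held for 9.8% of all tested genes. Of 22 further ATF4 and amino acid genes, 0 were called between arms in either fit. Between numbers 6 (27.3%) were called, against 24.3% of all tested genes: Cebpb, Slc7a11, Gpt2, Got1, Map1lc3b and Hmox1. Wars was the 1 of 10 aminoacyl-tRNA synthetases (10%) to differ between numbers, and Eif2b1 and Eif2b3 were the 2 of 9 eIF2 kinases and partners (22.2%).

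Markers of other blood cells also differed between numbers and, in the blocked fit only, between arms. In the unblocked arm fit 0 were called in each marker list (limma), against 0.0588% of all tested genes. Of all tested genes, 24.3% were called between numbers and 2.96% between arms in the blocked fit. Late neutrophil markers, 6 of 9 above the limit and all 6 called between numbers, summed to 3948, 993 and 1234 with empty vector and to 2637, 219 and 993 with miR-9/9*. Eosinophil markers, 3 of 7 above the limit and all 3 called between numbers, summed to 1376, 255 and 386 and to 3617, 277 and 1051. Both sums were lowest in number 2, where Ddit3, Trib3 and Herpud1 were highest. Lcn2 of the neutrophil list went the other way with empty vector, at 84.1, 229 and 28.3, and was at 61.3, 55.3 and 23.9 with miR-9/9*. In the blocked arm fit 4 of the 6 neutrophil, 2 of the 3 eosinophil and 0 of the 5 mast cell and basophil markers were called. Mast cell and basophil markers, with 4 of the 5 above the limit called between numbers, summed to 56.4 to 237 and to 38.2 to 249. Erythroid markers summed to 2781 to 3966 and to 3834 to 3991, with 4 of 7 called between numbers and 3 between arms in the blocked fit. The sums for megakaryocyte markers were 1602, 2268 and 1233 with empty vector and 1972, 2871 and 1509 with miR-9/9*, with 5 of 6 and 4 of 6 called. These sums were highest in number 2 in both arms. For the myeloid list they were 7925 to 10476 and 7130 to 11753, with 6 of 10 and 1 of 10 called.

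Some defining markers were near 0, with Alas2 at no more than 1.54, Slc4a1 at no more than 6.28, Camp at no more than 6.92 and Ccr3 at no more than 6.68. Others of the erythroid list were not. Rhag was at 105, 32.4 and 89.0 with empty vector and at 477, 330 and 444 with miR-9/9* (limma adjusted p = 0.000495 with the block, 0.0740 without). Gata1 and Klf1 were higher in 3 of 3 numbers and passed in the blocked fit alone (limma adjusted p = 0.00674 and 0.0147). Tfrc, the brightest of the list, and Epb42 had negative estimates. Plasma cells and B cells, known for high ER chaperone levels, had 1 of 9 listed markers above the limit, with sums of 54.1 to 62.6 and of 67.1 to 78.2, Jchain at no more than 11.8 and Sdc1 at no more than 7.39. The part of these cell type markers in the differences between numbers and arms was not tested.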

How the data were processed

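Messenger RNA from 6 samples of 32D cells, 3 per arm, was hybridised to 1-colour expression arrays. The deposited values are MAS5 signal intensities on a linear scale, per the submitters' processing notes, and the MAS5 version is not given in the sources used here. MAS5 combines the probes of a probe set into 1 intensity, and detection calls were not used here. Of 45101 probe sets, 64 are controls, 34945 carry 1 gene symbol in a 2016 platform annotation, 932 several and 9160 none. Genes were named from probe sets with 1 symbol and read from the 1 with the highest mean log2 value. They were taken as log2(signal + 16), so fold changes of dim genes are understated. Probe sets with a mean below the median of all probe sets (4.86, a signal of 13.0) were left out.

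Linear models were fitted with limma 3.58.1 under R 4.3.3. The main one holds the arm alone (two-sided, eBayes with a variance trend, 4 residual degrees of freedom), with Benjamini-Hochberg adjustment over all 10200 genes and a threshold of 0.05. The replicate number was tested by limma's F test in a fit with arm and number, and served as a block in an alternative arm fit (2 residual degrees of freedom). The deviations from the arm mean of 2 arrays with the same number correlated at 0.491, 0.616 and 0.681 across genes, all over the limit of 0.1, so the numbers were taken to pair the samples. The labels state no shared culture or day, so this pairing rests on the data. Values in every array are given for genes called in any test, for the 3 largest arm differences and for the 2 highest means of each role; others were added after their values were seen. Alternatives changed the pseudocount, the filter, the normalization, the variance model or the weights, averaged the probe sets, or left out an array or a number. The scripts were tested on simulated data. The members and gene lists were chosen with earlier results of these data known.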

Additional observations from a re-analysis of the deposited data

How the results depend on the processing

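The unblocked arm fit called 6 of all tested genes, and with the replicate number as a block the count was 302. The alternatives with a block gave 282 (pseudocount 1), 293 (pseudocount 64), 74 (no filter on dim probe sets), 336 (stricter filter), 273 (quantile normalization), 266 (centred arrays), 232 (averaged probe sets), 38 (no variance trend) and 309 (robust eBayes). Without the block, pseudocount 1 gave 2, no filter 0 (limma, with 892 at an unadjusted p under 0.05), no variance trend 3 and array weights 26. Leaving out single arrays gave 0 to 7, and leaving out a number from the blocked fit 162, 337 and 356. Of the 33 response genes, 0 were called between arms under 28 of 29 alternatives, and 1, Hsp90b1, with the block and quantile normalization. The genes called between numbers were 10 (24.3% of all tested genes), 5 without a variance trend (8.53%), 15 after quantile normalization (21.0%), 12 with centred arrays (24.3%), 7 with no filter (5.81%), and 11, 8 and 7 without number 1, 2 and 3 (23.9%, 17.1% and 7.75%). Of 396 single calls between numbers under the alternatives, 20 were lost and 17 gained. Of 957 arm estimates of these genes, 80 had the other sign, over 23 genes, none with a main value beyond 0.19 in size. The median of the ER-associated degradation genes moved to between -0.08 and -0.05 in 6 alternatives. The cause of these shifts was not tested. Chac1 was tested only with no filter on dim probe sets, where it was not called between arms or numbers. In the main and the blocked fit, 2 to 4 residual degrees of freedom limit the arm comparison.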

Other observations

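Wfs1, which encodes an ER membrane protein that restrains ATF6, lay below the limit for dim probe sets on average and was not tested. Its signals were 15.9, 19.4 and 14.5 with empty vector and 7.58, 8.07 and 9.91 with miR-9/9*. The arms did not overlap, which held for 9.8% of all tested genes. Wfs1 was chosen after its values were seen.

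Other probe sets of the same genes gave further values, also chosen after they were seen. A dimmer probe set of Hyou1 was at 68.5, 85.8 and 74.4 with empty vector and at 46.8, 74.1 and 49.9 with miR-9/9*, lower in each number. A second probe set of Dnajc3 was at 431, 502 and 508 and at 446, 364 and 376, lower in numbers 2 and 3 and not in number 1. A second probe set of Hspa5 was at 2049, 2513 and 2874 and at 1880, 1987 and 2519, lower in each number and highest in number 3 in both arms, like the one described above. Another, dimmer one was at 398, 358 and 391 and at 395, 379 and 409, higher with miR-9/9* in numbers 2 and 3.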
